A study of Drosophila melanogaster with 36 samples.

Results

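The comparison set heads of flies expressing the polyglutamine (polyQ) Atrophin transgene A75QN for 2 days against heads of Control flies of the same day, 3 arrays each and 6 of the 36 arrays of the study. The arrays were chosen by genotype and day in the sample titles, with no use of measured values. A75QN flies carried GMR-Gal4, a temperature-sensitive Gal80 repressor and the PolyQ Atro A75QN transgene. Control flies, called wild-type in the study's design, carried GMR-Gal4 and Gal80, so driver and repressor were common to both groups. The other 2 lines, used for direct tests, carried the polyQ transgene A66QC or the wild-type Atro transgene with the same driver and repressor. All flies developed at 18 °C, were collected within 0 to 48 hours of eclosion and were sampled at once (day 0) or after 2 or 14 days at 29 °C. Each RNA sample came from 20 heads. The labels give neither the place of the expanded stretch in the protein nor the sex of the flies.

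Atrophin is a nuclear transcriptional corepressor, encoded in the fly by Gug (Grunge), and a polyQ expansion in its human homologue causes the neurodegenerative disease dentatorubral-pallidoluysian atrophy. Gal4 under the GMR enhancer is active in the developing and adult eye, chiefly in photoreceptors and the other cells of the retina. Gal80 holds Gal4 inactive at the lower temperature and loses this hold at the higher one, so the shift to warmth switches the transgene on. The heads also hold brain, muscle, fat body, cuticle, glia and blood cells outside the retina, and a transcript of the eye is diluted by theirs. In such bulk samples, fewer cells of a type and less RNA per cell cannot be told apart.

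The files hold 1 log2 value per probe set and array, and every level below is on that log2 scale. Array medians lay between 6.34 and 6.40, and a group mean under the highest of them is called near background. Fold changes from such a level are uncertain. Over the tested probe sets, A75QN arrays correlated with each other at r of 0.9981 to 0.9984, Control arrays at 0.9979 to 0.9985, and arrays of different groups at 0.9937 to 0.9950. Head markers were high in both groups. The arrestin Arr2 measured 13.74, 13.69 and 13.64 in A75QN heads, against 13.68, 13.50 and 13.65 in Control heads, and the neuronal RNA-binding protein elav measured 9.23, 9.29 and 9.30 in A75QN heads, against 9.26, 8.93 and 8.99 in Control heads. The glial factor repo measured 9.78, 9.79 and 9.76 in A75QN heads, against 9.79, 9.57 and 9.76 in Control heads. Of the markers written for each cell type, 33 of 43 had a measured gene, and the major rhodopsins and Mhc were among those not used here. The testis markers can, aly, Mst87F and dj averaged near background in both groups. The remaining testis marker, Tektin-C, averaged 8.46 in A75QN heads and 6.31, near background, in Control heads.

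The spike-in controls and the actin control probe sets separated the groups. The 24 probe sets for poly-A RNA spike-ins, which are added to a sample before labelling, averaged 13.2 ± 0.061 on A75QN arrays and 10.4 ± 0.183 on Control arrays (SD, n = 3 each), a difference of 2.86. Among all arrays, the A75QN arrays of days 2 and 14 gave 13.161 to 13.404, and the other 30 gave 10.173 to 10.829. At this day, spike-in level and genotype cannot be told apart. At day 0, before the shift, A75QN arrays averaged 10.4 ± 0.138 and Control arrays 10.6 ± 0.183 (SD, n = 3 each). The 18 hybridization controls averaged 9.70 on A75QN arrays and 9.63 on Control arrays. The 3' minus 5' difference of the actin control probe sets, a measure of RNA integrity, was 1.56 ± 0.094 in A75QN and 1.76 ± 0.033 in Control (SD, n = 3 each). Its arrays did not overlap, at 1.49 to 1.66 in A75QN and 1.72 to 1.79 in Control. At day 0 it averaged 1.72 in A75QN and 1.41 in Control. For eIF-4a it averaged 1.59 in A75QN and 1.63 in Control at day 2, and 1.81 and 1.57 at day 0. For GAPDH it was 1.76 ± 0.087 in A75QN and 1.82 ± 0.056 in Control (SD, n = 3 each). Control replicate 2 stood apart in the spread of its values, whose SD was -6.71% off the group's median SD. The part of these measures in the differences below was not tested. The day 0 values given beside them are no such test, as a difference gained after day 0 cannot be told apart from the shifts of the spike-in and actin controls.

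At day 2, A75QN heads differed from Control heads in 878 of 18769 probe sets (4.68%) at a Benjamini-Hochberg adjusted p of limma's moderated test under 0.05. Of these, 311 (1.66%) were higher and 567 (3.02%) lower in A75QN. An unadjusted p of this test under 0.05 was found for 2766 of the 18769 probe sets. Higher probe sets made up 35.4% of the calls on the deposited values, 49.7% after quantile normalization and 44.6% after cyclic loess normalization. With the brightest probe set standing for each of 11982 genes, 706 genes (5.89%) passed, 212 (1.77%) higher and 494 (4.12%) lower. A gene past this threshold is said to have risen or fallen in A75QN. Most changes were small, with a median of 0.33 among risen genes and -0.33 among fallen genes, against 0.0020 over all genes. Of the risen genes, 4 differed by at least 1, 36 by 0.5 to 1 and 172 by less. Of the fallen genes, 23 differed by at least 1, 87 by 0.5 to 1 and 384 by less. The arrays of the groups did not overlap for 703 of the 706 genes, a separation that the test favours. Over all genes, groups did not overlap for 2934 (24.5%). The plot of the largest changes by array holds only genes picked for arrays without overlap, so their separation was fixed by that choice.

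**Figure D1:**
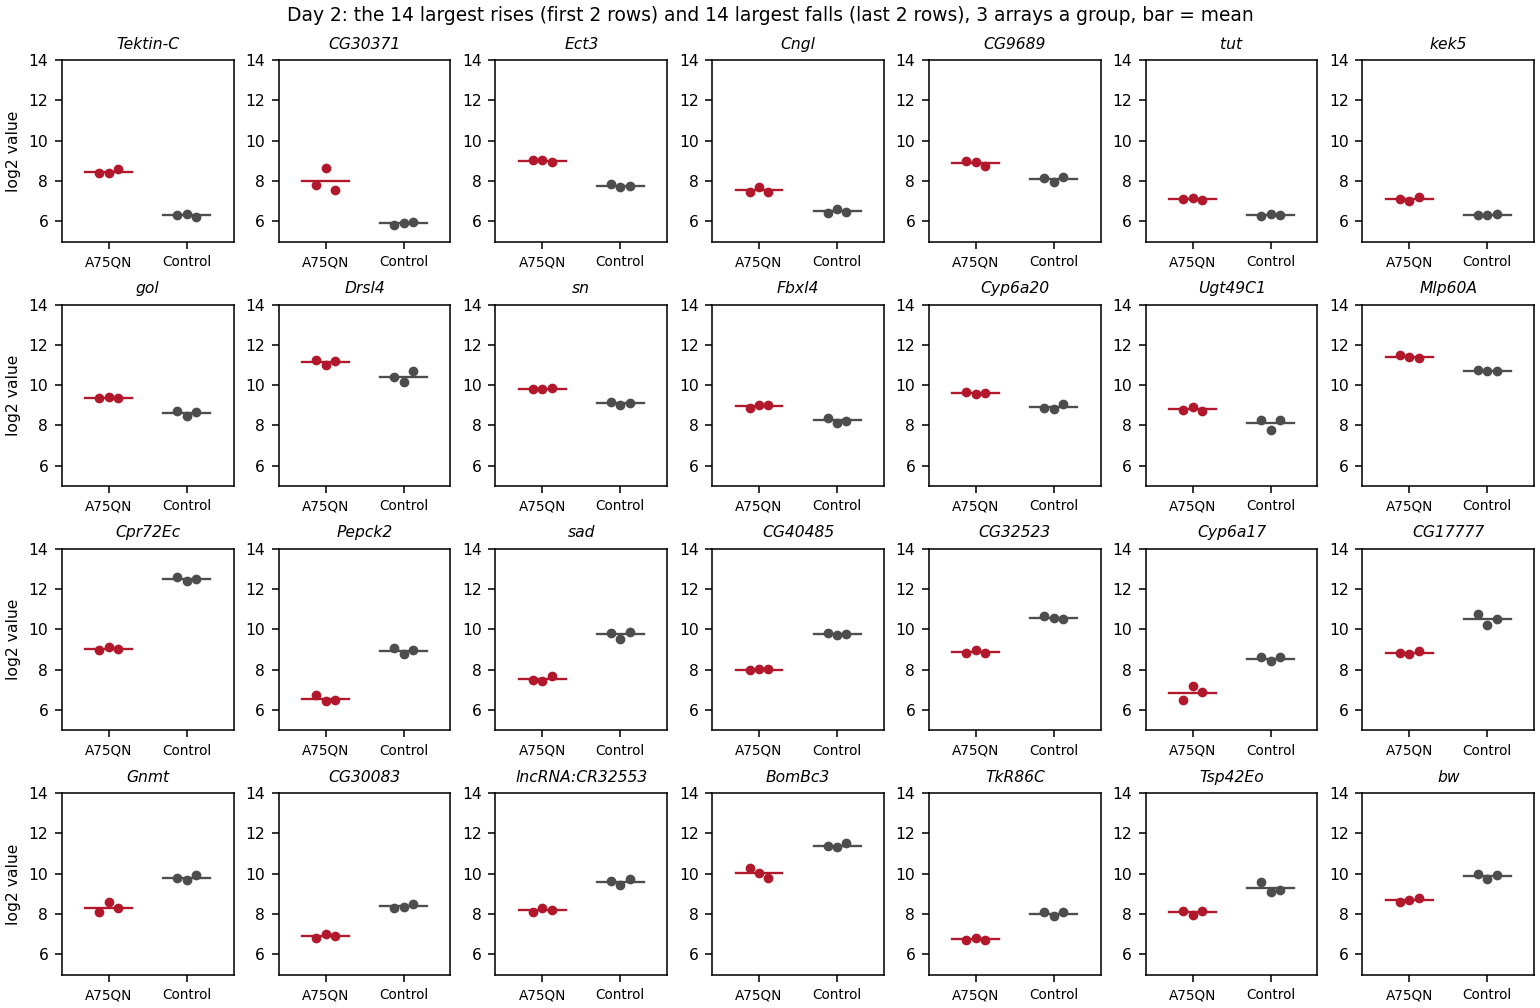
Log2 value on each array of the 14 genes with the largest rises (first 2 rows) and the 14 with the largest falls (last 2 rows) in A75QN against Control at day 2. Points are single arrays and bars are means of 3 arrays. Genes were picked among called genes without overlap of the groups, so the separation of the points follows from that choice.

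The largest fall was that of Cpr72Ec, a cuticular protein of the corneal lens. Its levels were 8.96, 9.11 and 9.02 in A75QN heads, against 12.61, 12.40 and 12.52 in Control heads. The arrays of each group lay within a narrow band far from the other, and the difference of -3.48 ± 0.12 (SE) is an 11.1-fold lower level (adjusted p = 6.06e-20). At day 0 the difference had been 0.27 ± 0.12 (adjusted p = 0.178). Between days 0 and 2, 25.7% of all genes changed in A75QN heads and 28.4% in Control heads. Over that time, the level of Cpr72Ec fell by 2.44 in A75QN heads and rose by 1.31 in Control heads. The other 5 measured genes of the corneal lens and retinal cuticle list were not called, and the list's median was 0.03.

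The steroid pathway gene sad (shadow) also fell. It encodes a mitochondrial cytochrome P450 that acts late in ecdysone synthesis. Its levels were 7.51, 7.45 and 7.69 in A75QN heads, against 9.84, 9.53 and 9.89 in Control heads. All A75QN arrays lay well under all Control arrays, with a difference of -2.20 ± 0.071 (SE, adjusted p = 2.19e-20), or 4.6-fold. Both groups started near background at day 0, at 6.33 ± 0.056 in A75QN and 6.22 ± 0.074 in Control (SD, n = 3 each). From there A75QN heads rose by 1.22 and Control heads by 3.53 to day 2. The difference was -3.10 at day 14. GstE14 (noppera-bo), a glutathione transferase also needed for ecdysteroid synthesis, fell to 7.43, 7.44 and 7.37, against 8.07, 8.02 and 8.07 in Control, a difference of -0.64 ± 0.10 (SE, adjusted p = 7.4e-05). Of the 20 measured genes of ecdysone synthesis and response, sad fell, the cell adhesion gene ImpL1 rose by 0.22 and 18 were not called. The share called was 10%, against 5.89% of all genes, and the list's median was 0.04. The ImpL1 call was lost without A75QN replicate 1 or Control replicate 2 (0.19 to 0.20, adjusted p = 0.0637 to 0.0885).

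Pepck2, a paralogue of the gluconeogenic enzyme phosphoenolpyruvate carboxykinase, measured 6.73, 6.46 and 6.51 in A75QN heads, against 9.06, 8.80 and 9.00 in Control heads. It fell by 2.39 (SE 0.15, adjusted p = 3.04e-13), 5.23-fold. The adjacent gene Pepck1 measured 10.91, 10.48 and 10.63 in A75QN heads, against 11.55, 11.22 and 11.56 in Control heads, a difference of -0.77 ± 0.16 (SE, adjusted p = 0.00258). The 2 genes are near relatives, and how far their probe sets tell them apart was not tested. Pepck2 already differed at day 0, by -1.53 ± 0.15 (SE, adjusted p = 1.03e-08), and Pepck1 differed there by -0.071. Between the days its level fell by 0.85 in A75QN heads, while the Control mean was 8.95 at day 0 and 8.95 at day 2.

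Gnmt, the glycine N-methyltransferase that consumes S-adenosylmethionine, changed sides. At day 2 it measured 8.11, 8.58 and 8.28 in A75QN heads, against 9.79, 9.68 and 9.93 in Control heads, a difference of -1.48 ± 0.26 (SE, adjusted p = 0.00029). At day 0 it had been higher in A75QN by 1.44 ± 0.26 (SE, adjusted p = 0.000452). The change between the days was -2.91 ± 0.37 (SE, adjusted p = 6.46e-06), and at day 14 the difference was 0.11. The cuticular gene Cpr62Bc and the gene CG8736 showed the same order. Cpr62Bc differed by 1.44 at day 0 and -0.87 at day 2, a change of -2.31 ± 0.34 (SE, adjusted p = 9.18e-05). CG8736 differed by 1.05 at day 0 and -0.68 at day 2, a change of -1.73 ± 0.28 (SE, adjusted p = 0.000334). Their day 2 calls were marginal. That of Cpr62Bc was lost without A75QN replicate 1, 2 or 3 or Control replicate 1 or 3 (-0.91 to -0.83, adjusted p = 0.0752 to 0.121). That of CG8736 was lost without A75QN replicate 1, 2 or 3 or Control replicate 1 or 3 (-0.71 to -0.62, adjusted p = 0.0887 to 0.165).

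Among the rises, Tektin-C stood first. Tektins are filament proteins of ciliary and flagellar microtubules. Its levels were 8.38, 8.39 and 8.60 in A75QN heads, against 6.32, 6.37 and 6.24 in Control heads, a difference of 2.15 ± 0.10 (SE, adjusted p = 2.95e-16). The Control mean was near background, so the 4.43-fold rise is an uncertain size. The other 22 genes of the testis and sperm list were not called, and the list's median was 0.02. The day 0 difference was 2.16 and that of day 14 2.03, close to that of day 2. CG30371 was also near background in Control and measured 7.80, 8.64 and 7.58 in A75QN heads, against 5.82, 5.93 and 5.96 in Control heads. Its A75QN arrays were spread over more than 1 log2 unit yet lay above every Control array, with a difference of 2.10 ± 0.18 (SE, adjusted p = 4.06e-10). At day 0 its difference was 0.88, and the change of 1.22 ± 0.25 (SE) passed the test (adjusted p = 0.00608).

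Ect3, related to lysosomal beta-galactosidases, measured 9.03, 9.02 and 8.97 in A75QN heads, against 7.87, 7.70 and 7.75 in Control heads. It was 2.35-fold higher in A75QN, by 1.23 ± 0.10 (SE, adjusted p = 3.8e-10), where at day 0 the difference had been -0.12 (adjusted p = 0.508). In A75QN heads it averaged 9.16 ± 0.088 when eclosed and 9.01 ± 0.034 after 2 days (SD, n = 3 each), and the level in Control heads fell by 1.51 between these days. The actin-bundling protein fascin, encoded by sn (singed), measured 9.82, 9.81 and 9.86 in A75QN heads, against 9.18, 9.02 and 9.10 in Control heads. It rose by 0.73 (SE 0.073, adjusted p = 1.9e-08), after a day 0 difference of -0.068 and before a day 14 difference of -1.48. Fbxl4, an F-box protein, rose by 0.71 ± 0.078 (SE, adjusted p = 1.18e-07) and had differed by 0.21 at day 0. Cngl, a cyclic nucleotide-gated channel-like gene, rose by 1.06 ± 0.13 (SE, adjusted p = 6.64e-07) at its brightest probe set, while its other 4 probe sets differed by -0.0019 to 0.25. The ubiquitin ligase gene gol (goliath) rose by 0.77 at one probe set and 0.44 at the other.

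The day 0 flies give a measure of which differences were present before the shift to 29 °C. No array is shared between the comparisons of the 2 days. At day 0, 1062 genes (8.86%) were called, of which 281 (2.35%) were higher and 781 (6.52%) lower in A75QN. Of the genes risen at day 2, 52 of 212 (24.5%, and 18.5% of those higher at day 0) were also higher at day 0, and 3 were lower. Of the genes fallen at day 2, 155 of 494 (31.4%, and 19.8% of those lower at day 0) were also lower at day 0, and 14 were higher. Across all 11982 genes, which share arrays and are no replicates, the differences of the 2 days correlated with r = 0.241. The spike-in difference seen at day 2 was not there at day 0, so a change between these days cannot be told apart from it.

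A direct test of the change in the A75QN minus Control difference between days 0 and 2 passed for 383 of 18769 probe sets (2.04%), or 303 of 11982 genes (2.53%). Among the 706 genes called at day 2, the change passed for 141. For 140 of these it ran in the direction of the day 2 difference, a side that being called at day 2 favours. For 200 genes, both days were called and the change was not. The plot of both days' differences sets these classes apart.

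**Figure D2:**
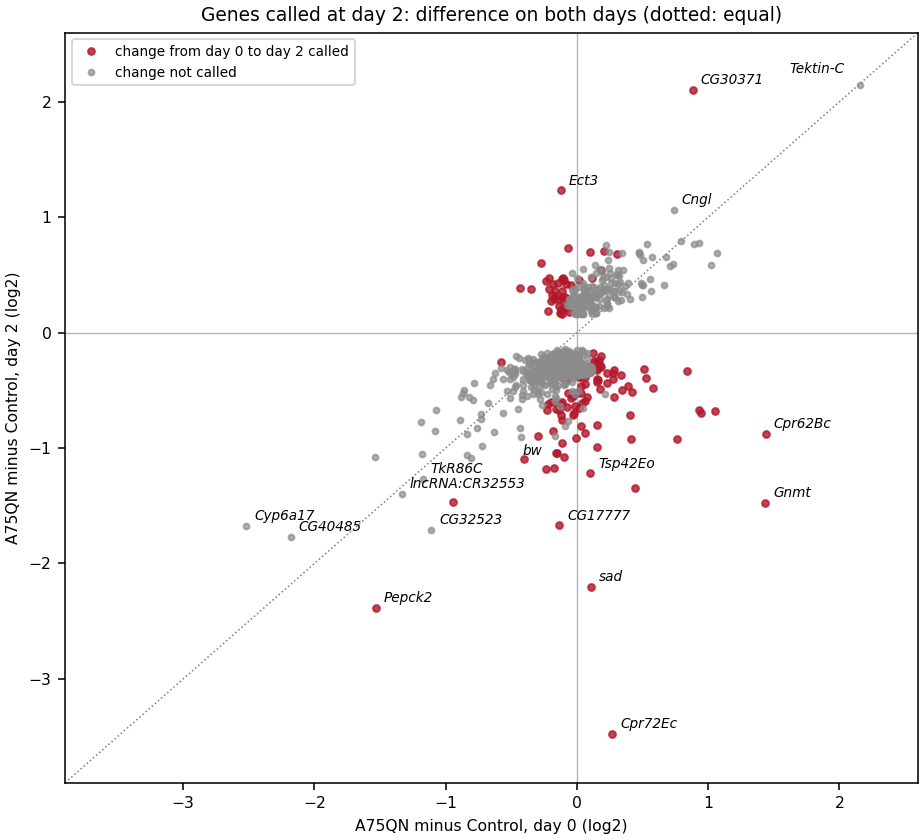
A75QN minus Control difference (log2) at day 0 (horizontal) and day 2 (vertical) for the 706 genes called at day 2. Red points passed the test of the change between the days and grey points did not, and the dotted line marks equal differences; Tektin-C lies on it, while Cpr72Ec and sad lie near 0 at day 0.

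Several of the strongest differences had been there at day 0 in nearly full size. TkR86C, a receptor for tachykinin-related peptides, measured 6.73, 6.83 and 6.72 in A75QN heads, against 8.08, 7.89 and 8.11 in Control heads, a difference of -1.27 ± 0.10 (SE, adjusted p = 9.16e-11), after -1.18 at day 0. The long non-coding RNA CR32553 measured 8.11, 8.30 and 8.21 in A75QN heads, against 9.62, 9.45 and 9.75 in Control heads, a difference of -1.40 after -1.33 at day 0 (adjusted p = 6.17e-12 at day 2). For both RNAs the arrays of the groups did not overlap at day 2. Cyp6a17, a cytochrome P450 known from temperature preference behaviour, measured 6.51, 7.22 and 6.89 in A75QN heads, against 8.61, 8.42 and 8.61 in Control heads. Its A75QN arrays were the more spread ones, and the difference was -1.68 ± 0.24 (SE, adjusted p = 1.05e-05) after -2.52 at day 0. Hsc70-2, a member of the heat shock cognate family, differed by -0.88 at day 2 and -0.83 at day 0. Map205, a microtubule-binding protein, differed by -1.05 at day 2 and -1.18 at day 0. Similar pairs of values were found for CG40485 (-1.77 at day 2 and -2.18 at day 0), CG9689 (0.79 and 0.79), the RNA-binding protein gene tut (0.78 and 0.93) and the leucine-rich repeat membrane protein gene kek5 (0.77 and 0.89). A second probe set of CG40485 differed by -0.72 at day 2, and one of kek5, near background, by 0.033. For none of these 9 genes did the change between the days pass the test, with adjusted p of 0.213 (Cyp6a17) or more.

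Other genes gained their difference between the days. CG17777 measured 8.83, 8.78 and 8.94 in A75QN heads, against 10.79, 10.23 and 10.53 in Control heads, a difference of -1.67 ± 0.11 (SE, adjusted p = 3.21e-12) after -0.13 at day 0. It rose between the days in both groups, by 1.27 in A75QN heads and 2.81 in Control heads. The tetraspanin Tsp42Eo, of a family of membrane scaffold proteins, measured 8.15, 7.96 and 8.15 in A75QN heads, against 9.60, 9.12 and 9.20 in Control heads. Its level also rose in both groups between the days, by 1.57 in A75QN and 2.90 in Control. Strica, a caspase, was near background in A75QN heads and measured 6.19, 6.15 and 6.13 in A75QN heads, against 7.16, 7.10 and 7.17 in Control heads. Its difference was -0.99 ± 0.058 (SE, adjusted p = 9.01e-14) after 0.15 at day 0. The plot of means by day follows 12 genes through all groups.

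**Figure D3:**
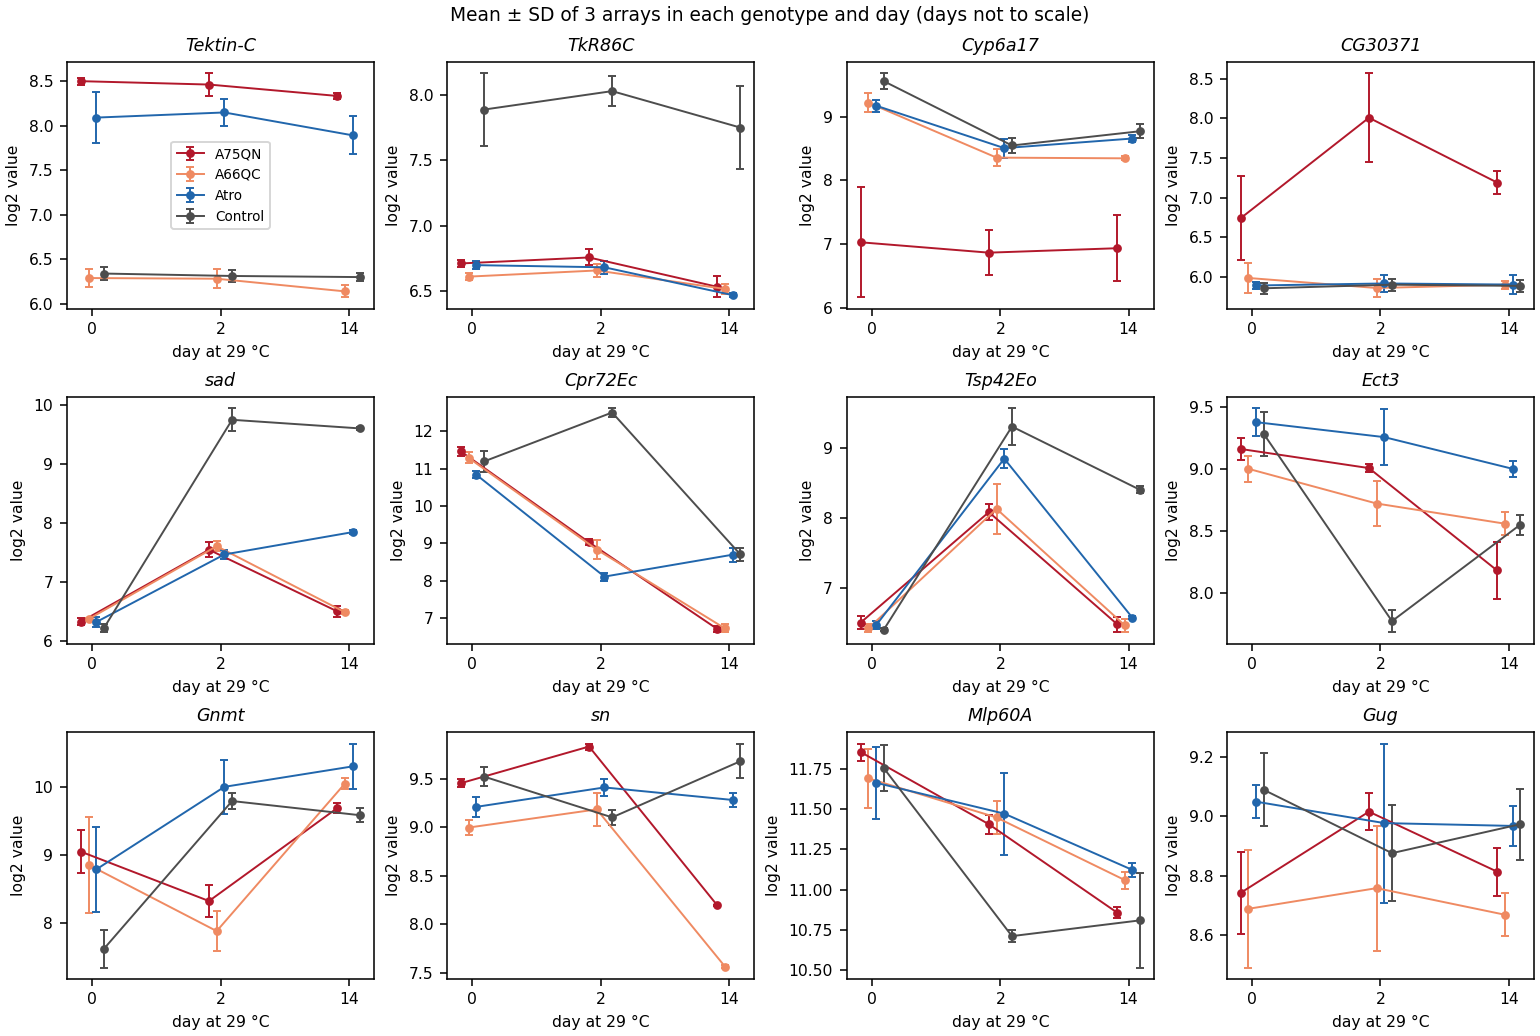
Mean log2 value ± SD of 3 arrays for each genotype at days 0, 2 and 14 at 29 °C, for 12 genes. Tektin-C and TkR86C keep their distance from Control on every day, Cpr72Ec and sad separate A75QN from Control after day 0, and Gug overlaps between A75QN and Control at day 2.

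The gene of the transgene's own protein, Gug, measured 8.95, 9.08 and 9.02 in A75QN heads, against 9.05, 8.74 and 8.84 in Control heads. The groups overlapped, and the difference of 0.14 ± 0.11 (SE) did not pass the test (adjusted p = 0.662). At day 0 the difference was -0.35 ± 0.11 (SE, adjusted p = 0.0477). The labels do not say whether the probe set of Gug detects the transgene's RNA, so this value does not check the induction.

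Of 19 phototransduction genes, 2 rose and none fell (10.5%, against 5.89% of all genes), with a list median of 0.12. The median was 0.06 without Control replicate 2. The channel gene trpl rose to 12.23, 12.27 and 12.26, against 11.98, 11.84 and 12.01 in Control, a difference of 0.31 ± 0.067 (SE, adjusted p = 0.00331). CG11426, a lipid phosphate phosphatase family member, rose by 0.48 ± 0.076 (SE, adjusted p = 7.21e-05) after -0.21 at day 0. Of 14 further probe sets of the list's genes, 4 also passed and were higher, and they are named after their values were seen. They were those of the diacylglycerol kinase gene rdgA (0.35 and 0.31), inaE (0.25) and rtp (0.31). Each of these calls was lost without A75QN replicate 2 or 3 or Control replicate 2 or 3 (0.20 to 0.40, adjusted p = 0.0505 to 0.204). Without A75QN replicate 1, those of rdgA (both probe sets) and rtp were also lost (0.30 to 0.33, adjusted p = 0.0574 to 0.139). Without Control replicate 1, the rtp call and that of the rdgA probe set at 0.31 were lost too (0.31 to 0.33, adjusted p = 0.0507 to 0.0887). The light-activated channel gene trp measured 12.31, 12.30 and 12.27 in A75QN heads, against 12.27, 12.06 and 12.22 in Control heads, and its groups lay close together. Of 12 genes of the rhabdomere and the retinal cell surface, prom and Act88F rose (16.7%, against 5.89% of all genes). Act88F encodes the flight muscle actin and is counted again in the muscle list below. The gene prom rose by 0.22, while its other 2 probe sets differed by 0.14 and 0.0060 and did not pass. Of 17 regulators of retinal fate, limma called 0 at the adjusted threshold, with a median of 0.09. An unadjusted p under 0.05 was found for 4 of them, against 2766 of all 18769 probe sets. Of 7 genes of the visual retinoid pathway, pinta, a retinol-binding protein of pigment cells, fell by 0.35 (adjusted p = 0.00214) and the carotenoid cleavage enzyme gene ninaB fell by 0.38 (adjusted p = 0.00698), 28.6% of the list. The ninaB call was lost without Control replicate 1 or 3 (-0.34, adjusted p = 0.0562 to 0.0623).

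Eye pigment genes were represented by bw (brown), a half-transporter for the precursors of the red pteridine pigments. It measured 8.59, 8.71 and 8.79 in A75QN heads, against 9.98, 9.73 and 9.93 in Control heads, a difference of -1.18 ± 0.10 (SE, adjusted p = 1.7e-10) with no overlap, after -0.24 at day 0. A second, dimmer probe set of bw differed by -0.49. The difference at day 14 was -3.01. The level rose between the days by 0.69 in A75QN heads and 1.63 in Control heads. Of 21 pigment genes, kar and bur also fell, by 0.35 and 0.26, none rose (14.3% called, against 5.89% of all genes), and the median was -0.07. The kar call was lost without Control replicate 1 or 3 (-0.35 to -0.29, adjusted p = 0.0529 to 0.105). The bur call was lost without A75QN replicate 1 or 3 or Control replicate 1 or 3 (-0.27 to -0.22, adjusted p = 0.0774 to 0.175).

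Muscle transcripts were the list with the highest median, 0.26 against 0.0020 over all genes. Of 23 contractile genes, 6 rose and none fell, a share of 26.1% called against 5.89% of all genes. Mlp60A, a LIM protein of the muscle Z-disc, measured 11.48, 11.38 and 11.37 in A75QN heads, against 10.75, 10.68 and 10.70 in Control heads, with every A75QN array above every Control array and a difference of 0.70 ± 0.11 (SE, adjusted p = 0.000116). The flight muscle actin Act88F measured 7.95, 7.78 and 7.75 in A75QN heads, against 7.21, 7.02 and 7.17 in Control heads. The myosin light chain Mlc2 rose by 0.56 (adjusted p = 0.00198) and paramyosin, encoded by Prm, rose by 0.52 (adjusted p = 0.0055). The other 2 risen genes, Act87E and Mlc1, fall outside the rule by which genes are named here and were chosen after their values were seen. Act87E rose by 0.41 and Mlc1 by 0.38. The Act87E call was lost without A75QN replicate 1 or Control replicate 2 or 3 (0.32 to 0.37, adjusted p = 0.118 to 0.127). The Mlc1 call was lost without A75QN replicate 1 or Control replicate 2 (0.32 to 0.33, adjusted p = 0.0931 to 0.109). At day 0, Mlp60A differed by 0.10, and between the days it fell by 0.45 in A75QN heads and by 1.04 in Control heads. Other, dimmer probe sets of Mlp60A differed by 0.12 and 0.04 and did not pass. The list's median was 0.19 without Control replicate 2. The count of risen muscle genes was 4 without A75QN replicate 1 or Control replicate 2, and 15 after quantile or cyclic loess normalization.

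Neuronal and synaptic genes had a median of 0.15, against 0.0020 over all genes, with 38 of 44 above 0. These genes share arrays and are no replicates, so the count of signs carries no test. Of the 44, 4 rose and 1 fell (11.4%, against 5.89% of all genes). Without Control replicate 2, whose spread stood apart, the median was 0.12, 3 genes rose and none fell. This array was the lowest Control array for elav and nSyb, while for brp Control replicate 1 was the lowest. At day 0 the list's median was -0.14, with 1 gene called higher and 6 lower in A75QN. At day 14 it was -0.10, with 0 called higher and 5 lower. The calcium-activated potassium channel gene slo rose to 8.21, 8.36 and 8.19, against 7.79, 7.62 and 7.87 in Control, a difference of 0.49 ± 0.087 (SE, adjusted p = 0.000345). The calcium channel gene cac rose by 0.48 and the acetylcholine receptor subunit gene nAChRalpha7 by 0.43, while the subunit gene nAChRalpha1 fell by 0.24. The potassium channel gene Shab rose by 0.19 and is named outside the rule, after its value was seen. Of these 5 calls, that of slo held without each array in turn. A further probe set of cac, near background, differed by 0.0093. The cac call was lost without A75QN replicate 2 or Control replicate 1 (0.40 to 0.47, adjusted p = 0.0558 to 0.121). The nAChRalpha7 call was lost without A75QN replicate 3 (0.38, adjusted p = 0.0548). The nAChRalpha1 call was lost without A75QN replicate 2 or Control replicate 2 (-0.22 to -0.20, adjusted p = 0.052 to 0.0559). The Shab call was lost without A75QN replicate 1, 2 or 3 or Control replicate 1, 2 or 3 (0.16 to 0.20, adjusted p = 0.0515 to 0.188). Among 19 glial genes 3 rose, namely the astrocyte gene alrm by 0.41, the blood-brain barrier transporter gene Mdr65 by 0.37 and the innexin gene ogre by 0.31, 15.8% of the list, whose median was 0.04 and -0.0052 without Control replicate 2. The alrm call was lost without Control replicate 2 (0.29, adjusted p = 0.106). The Mdr65 call was lost without A75QN replicate 1, 2 or 3 or Control replicate 1 or 2 (0.31 to 0.39, adjusted p = 0.0643 to 0.132). The ogre call was lost without A75QN replicate 1, 2 or 3 or Control replicate 1 or 2 (0.27 to 0.35, adjusted p = 0.0613 to 0.211). Of 27 neuropeptide and hormone genes, limma called 0, and 6 had an unadjusted p under 0.05, against 2766 of all 18769 probe sets.

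Of 20 antimicrobial peptide and effector genes, BomS2 and BomBc3 fell and none rose (10%, against 5.89% of all genes), with a list median of -0.18. The bomanins are short secreted peptides induced by the Toll pathway. BomS2 measured 11.27, 11.13 and 10.92 in A75QN heads, against 12.04, 12.00 and 12.14 in Control heads, a difference of -0.95 ± 0.15 (SE, adjusted p = 5.47e-05). BomBc3 fell by 1.35 (adjusted p = 0.014), a call lost without A75QN replicate 3 or Control replicate 3 (-1.29 to -1.23, adjusted p = 0.0717 to 0.0862). The list's largest difference, -1.78, belonged to Mtk, an antifungal peptide gene that did not pass (adjusted p = 0.183) and is named after its value was seen. Drsl4, a drosomycin-like gene, rose by 0.76 ± 0.15 (SE, adjusted p = 0.00102), at 11.26, 11.02 and 11.21, against 10.38, 10.15 and 10.69 in Control. Of 20 regulators of the Toll and Imd pathways, the protease psh (persephone) fell by 0.39 and the others were not called (5% called). The psh call was lost without Control replicate 3 (-0.34, adjusted p = 0.0695). Of 17 haemocyte genes, limma called 0, with a median of -0.10. An unadjusted p under 0.05 was found for 3 of them, against 2766 of all 18769 probe sets.

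The cytochrome P450 list held more calls than any other list. Of 80 cytochrome P450 genes, 4 rose and 10 fell, 17.5% against 5.89% of all genes, with a median of -0.03. Cyp6a20, known from aggression behaviour, rose to 9.66, 9.54 and 9.60, against 8.85, 8.81 and 9.05 in Control (difference 0.70 ± 0.092, SE, adjusted p = 3.63e-06). Cyp9c1 rose by 0.68 and Cyp4s3 fell by 0.57. The other 2 that rose, Cyp4p1 by 0.51 and Cyp4c3 by 0.29, are named after their values were seen. Besides Cyp6a17 and Cyp4s3, those that fell were Cyp6t3, Cyp6d2, Cyp6a14, Cyp4p3, Cyp12c1, Cyp6t1, Cyp9h1 and Cyp4d1. Without Control replicate 3, 6 P450 genes rose and 4 fell. Of 34 glutathione transferases, GstE14 fell and the rest were not called (2.94% called). Of 25 fat body and yolk genes, Pepck1, Pepck2, Gnmt and CG5966 fell and none rose (16%). The CG5966 call was lost without A75QN replicate 2 or 3 or Control replicate 1 or 3 (-0.99 to -0.66, adjusted p = 0.0582 to 0.249). The larval storage protein gene Lsp2 measured 9.86, 11.08 and 10.42 in A75QN heads, against 8.53, 8.76 and 10.01 in Control heads, and its groups overlapped (adjusted p = 0.136). Ugt49C1, a UDP-glycosyltransferase, rose by 0.70 (adjusted p = 6.98e-06).

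Of 47 odorant-binding proteins, carriers of small molecules in sensory hairs, 4 rose and 6 fell (21.3%, against 5.89% of all genes). Without A75QN replicate 2 or Control replicate 2, 1 rose, and 5 or 6 fell. Obp99d measured 7.33, 7.12 and 7.31 in A75QN heads, against 8.27, 8.18 and 8.24 in Control heads, a difference of -0.98 ± 0.083 (SE, adjusted p = 4.06e-10) after -0.72 at day 0. Obp8a rose by 0.47 (adjusted p = 7.92e-06) after -0.11 at day 0. Obp56e fell by 0.59 and Obp49a by 0.38. The other 3 that rose, named after their values were seen, were Obp99b by 0.58, Obp57a by 0.40 and Obp44a by 0.31. The remaining ones that fell, named in the same way, were Obp83ef, Obp19b by 0.50 and Obp19c by 0.25. Obp19b had differed by -0.86 at day 0 and Obp19c by -0.34. For these fallen genes, the calls without single arrays are not given here. The Obp99b call was lost without A75QN replicate 2 or Control replicate 2 (0.47 to 0.52, adjusted p = 0.0691 to 0.0766). The Obp57a call was lost without A75QN replicate 2 or 3 or Control replicate 2 (0.28 to 0.40, adjusted p = 0.0566 to 0.139). The Obp44a call was lost without A75QN replicate 1, 2 or 3 or Control replicate 2 (0.21 to 0.32, adjusted p = 0.0556 to 0.181).

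Of 83 genes of cuticle and eclosion, 2 rose and 3 fell, a share of 6.02% that lies near the 5.89% of all genes. Besides Cpr72Ec and Cpr62Bc, Cpr12A rose by 0.40 and Cpr51A fell by 0.27. The remaining one, Cpr60D, rose by 0.17 and is named after its value was seen. The Cpr62Bc call was lost without A75QN replicate 1, 2 or 3 or Control replicate 1 or 3 (-0.91 to -0.83, adjusted p = 0.0752 to 0.121). The Cpr51A call was lost without A75QN replicate 2 or 3 or Control replicate 1 or 3 (-0.26 to -0.23, adjusted p = 0.0734 to 0.147). The Cpr60D call was lost without A75QN replicate 1, 2 or 3 or Control replicate 1, 2 or 3 (0.15 to 0.17, adjusted p = 0.101 to 0.197). Of 16 tracheal genes, Osi6 and Osi9 fell (12.5%). Osi6, a membrane protein of the Osiris family, measured 9.00, 8.88 and 8.69 in A75QN heads, against 9.83, 9.54 and 9.97 in Control heads, a difference of -0.92 ± 0.14 (SE, adjusted p = 2.62e-05) after 0.41 at day 0. Osi9 measured 6.25, 6.24 and 6.19 in A75QN heads, against 6.69, 6.78 and 6.88 in Control heads, with the A75QN level near background.

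Lists of cell death, protein quality and timing are set against the 5.89% of all genes called. Of 20 apoptosis and JNK genes (10% called), Strica fell and the Bcl-2 family gene Buffy rose by 0.31, a call lost without A75QN replicate 3 or Control replicate 2 (0.25 to 0.27, adjusted p = 0.088 to 0.0885). At the adjusted threshold, limma called 0 of 26 autophagy and lysosome genes (median -0.0019), 0 of 40 proteasome genes (-0.03) and 0 of 22 genes of Hippo and Fat signalling (0.02). An unadjusted p under 0.05 was found for 0, 0 and 1 of these. It called 0 of 41 cytosolic ribosomal protein genes and 0 of 75 oxidative phosphorylation genes, of which 4 and 2 had an unadjusted p under 0.05. Over all tested probe sets, 2766 of 18769 had such a p. Array weights gave 5 calls for autophagy, 3 for the proteasome, 4 for Hippo and Fat signalling, 5 for cytosolic ribosomal proteins and 4 for oxidative phosphorylation. Of 69 mitochondrial ribosomal protein genes (1.45%), mRpL43 fell by 0.25, a call lost without A75QN replicate 2 or Control replicate 3 (-0.22, adjusted p = 0.0643 to 0.0742). Of 15 heat shock genes and chaperones (13.3%), Hsc70-2 fell and DnaJ-1, an Hsp40 co-chaperone, fell by 0.25, a call lost without A75QN replicate 1 or 3 or Control replicate 1 or 3 (-0.26 to -0.20, adjusted p = 0.0758 to 0.257). Of 24 genes of the vacuolar proton pump (4.17%), Vha36-3 rose by 0.23, a call lost without A75QN replicate 1 or 2 or Control replicate 2 (0.18 to 0.22, adjusted p = 0.0691 to 0.112). Of 12 clock genes (16.7%), per fell by 0.34 (adjusted p = 0.000379) and cwo by 0.35. A second probe set of cwo, at 7.06 in A75QN and 7.11 in Control, differed by -0.057 and did not pass (adjusted p = 0.856). The cwo call was lost without A75QN replicate 1 or 3 or Control replicate 1 or 3 (-0.37 to -0.28, adjusted p = 0.0687 to 0.221). The labels do not give the hour of sampling. Of 10 genes of sex-biased expression in the head (10% called), dsx, a sex determination factor, fell by 0.47 (adjusted p = 0.00158). Its second probe set differed by -0.26 (adjusted p = 0.181). The yolk protein gene Yp1, a female marker, measured 13.55, 13.56 and 13.45 in A75QN heads, against 13.46, 13.38 and 13.52 in Control heads, with overlapping groups. The plot of list members shows each gene by list.

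**Figure D4:**
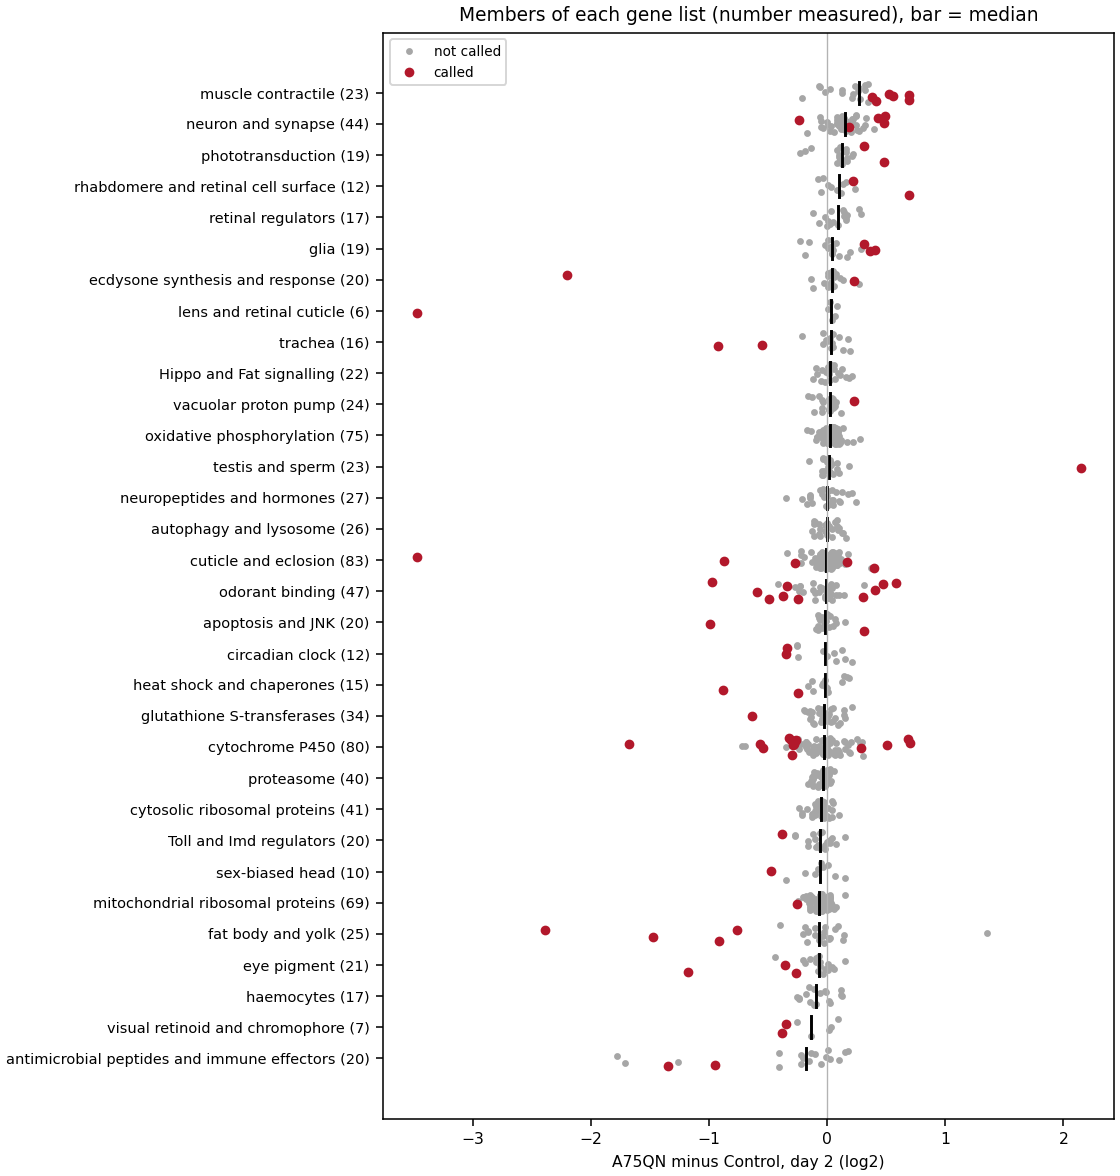
A75QN minus Control difference at day 2 (log2) of every measured member of each gene list, with the number measured in brackets. Red points passed the adjusted p, grey points did not and bars are medians; the muscle list has the highest median, 0.26, and the antimicrobial list the lowest, -0.18.

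Direct tests compared A75QN heads with the other 2 transgenic lines at day 2. Against the wild-type Atro line, 397 of 18769 probe sets (2.12%) passed, 132 (0.703%) higher and 265 (1.41%) lower in A75QN. Higher probe sets made up 33.2% of these calls on the deposited values, 47.1% after quantile normalization and 37.8% after cyclic loess normalization. Against the polyQ line A66QC, 540 (2.88%) passed, 280 (1.49%) higher and 260 (1.39%) lower. These tests share the A75QN arrays with the comparison against Control, so their calls are not independent of it and are given side by side. The spike-in difference sets the A75QN arrays of day 2 apart from these lines too, with means of 13.2 in A75QN, 10.5 in Atro and 10.5 in A66QC.

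Some of the genes that differed from Control also differed from both other lines. CG30371 was higher by 2.09 ± 0.18 (SE) against Atro and 2.15 ± 0.18 against A66QC. CG32523, which measured 8.81, 8.97 and 8.83 in A75QN heads, against 10.66, 10.58 and 10.51 in Control heads, differed from Control by -1.71 ± 0.15 (SE, adjusted p = 5.29e-10), from Atro by -1.46 and from A66QC by -1.54. Cyp6a17 differed from Atro by -1.63 and from A66QC by -1.49. The long non-coding RNA CR43242 measured 6.88, 6.91 and 6.90 in A75QN heads, against 8.02, 7.87 and 7.97 in Control heads and differed from Control by -1.06, from Atro by -1.07 and from A66QC by -1.04, each at an adjusted p of 7.08e-14 (A66QC) or less. The axon guidance receptor gene Sema1a was higher than Control by 0.63, Atro by 0.60 and A66QC by 0.72. Map205 differed from Atro by -0.68 ± 0.11 (SE) and from A66QC by -0.91 ± 0.11. A second probe set of lncRNA CR43242 differed from Control by -0.82. CG6891 was higher than Control by 0.69, Atro by 0.71 and A66QC by 0.69. Its calls were lost without A75QN replicate 3 (0.61, adjusted p = 0.0664) for Control, without A75QN replicate 3 (0.63, adjusted p = 0.0944) for Atro and without A66QC replicate 1 or 2 or A75QN replicate 3 (0.61 to 0.66, adjusted p = 0.0521 to 0.0936) for A66QC.

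Others differed from Control while no difference from Atro or A66QC passed. For TkR86C the A75QN minus Atro difference was 0.075 ± 0.10 and the A75QN minus A66QC difference 0.10 ± 0.10 (SE). For lncRNA CR32553 these differences were 0.16 ± 0.10 and 0.13 ± 0.10, and for Pepck2 -0.17 ± 0.15 and -0.011 ± 0.15. For sad they were 0.08 ± 0.071 and -0.06 ± 0.071, so the 3 transgenic lines lay within 0.14 of each other while Control lay about 2 log2 units above them. Strica differed from Atro by -0.066 and from A66QC by 0.0089. Mlp60A differed from Atro by -0.066 and from A66QC by -0.042.

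A further set of genes split the lines. Tektin-C was higher than A66QC by 2.18 ± 0.10 (SE, adjusted p = 5.89e-16), while its difference from Atro was 0.31 ± 0.10 (adjusted p = 0.116). Gnmt differed from Atro by -1.69 ± 0.26 (SE, adjusted p = 9.77e-05) and from A66QC by 0.44 ± 0.26 (adjusted p = 0.49). BomS2 differed from Atro by -0.95 (adjusted p = 0.000128) and differed from A66QC by -0.45 (adjusted p = 0.105). Tsp42Eo differed from Atro by -0.76 and differed from A66QC by -0.046. Cpr72Ec was higher than Atro by 0.92 (adjusted p = 7.84e-06), although it was lower than Control. The pigment gene bw was higher than both other lines, by 0.47 and 0.58, and lower than Control. The protease gene psh was higher than Atro by 0.72 and higher than A66QC by 0.58, and the fall against Control was lost without Control replicate 3 (-0.34, adjusted p = 0.0695). Drsl4 was higher than Atro by 1.40 and higher than A66QC by 1.62, more than its 0.76 against Control. CG7214 differed from Atro by -1.93, from A66QC by -1.13 and from Control by -0.65, the last call lost without A75QN replicate 2 (-0.49, adjusted p = 0.0534).

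**Figure D5:**
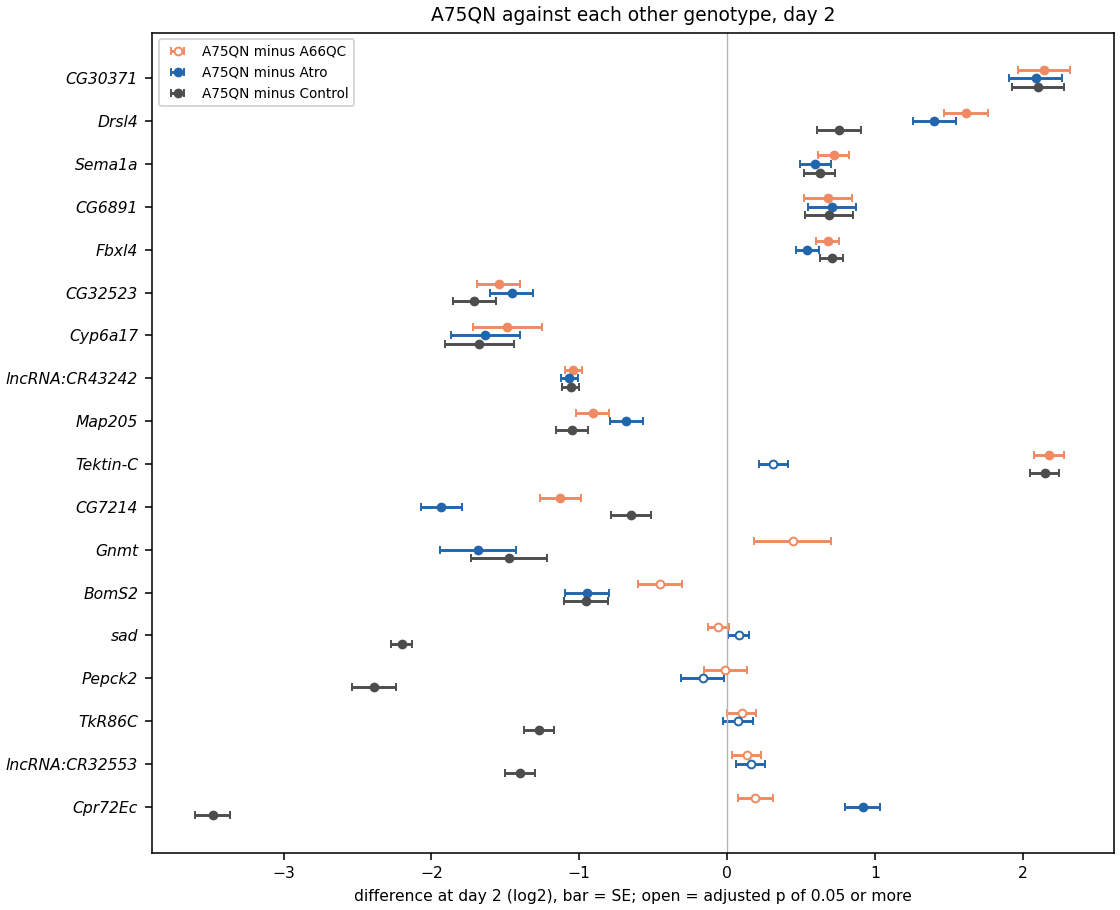
Difference of A75QN from A66QC, from Atro and from Control at day 2 (log2) for 18 named genes, with the SE of limma's fit as bars. Filled points passed the adjusted p and open points did not; CG30371 and lncRNA CR43242 differ from all 3 groups by about the same size, and the differences of sad and TkR86C passed against Control and not against the other 2 lines.

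Of the comparison's 84 called genes named by the rule, 58 kept their call without each of the 6 arrays in turn. Among these 84 calls against Control, every lost one, apart from those given beside the genes above, belonged to Prat2, Hipk or CG11893. In the direct tests at day 2, 28 of 37 named calls against Atro held without each array in turn. Against A66QC, 25 of 36 held. Of the calls lost in the direct tests, only those of CG6891 are given above. Prat2, an enzyme of purine synthesis, rose by 0.38, a call lost without A75QN replicate 1 or 2 or Control replicate 2 or 3 (0.26 to 0.40, adjusted p = 0.101 to 0.261). The kinase gene Hipk rose by 0.45, a call lost without A75QN replicate 1 or 2 or Control replicate 2 or 3 (0.40 to 0.44, adjusted p = 0.0969 to 0.161). CG11893 fell by 0.53, a call lost without A75QN replicate 3 or Control replicate 1 or 3 (-0.52 to -0.48, adjusted p = 0.0642 to 0.104). Also named were CG30083, which measured 6.83, 7.02 and 6.92 in A75QN heads, against 8.32, 8.36 and 8.50 in Control heads, and CG4962, which measured 7.09, 6.89 and 6.82 in A75QN heads, against 8.16, 8.18 and 7.98 in Control heads, both lower without overlap. The extracellular matrix gene Tsp (thrombospondin) rose by 0.60 after -0.27 at day 0, CG11438 rose by 0.39 after -0.43, and CG6472 rose by 0.38 after 0.23.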

How the data were processed

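Each array measured biotin-labelled total RNA of heads, as the labels' protocols state. The deposited files hold log2 values, for which the submitters' processing notes name R 2.11.0. The sources used here do not give the background correction, summarization or normalization. They also do not say that replicates came from separate cultures, and p-values then measure only the spread between these samples, which may be technical. Array data have no read depth, and the number of arrays limits precision.

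Control probe sets (183 of 18952) were left out. By the platform annotation, 13647 of 18769 probe sets had 1 gene symbol, 402 several and 4720 none, and the probe set with the highest mean over all arrays stood for a gene. Gene IDs of 13544 were found in the RefSeq gene table (assembly Release 6 plus ISO1 MT). No result is given for ft or w, which were not analysed here. All 36 arrays entered 1 limma 3.58.1 fit (R 4.3.3) of 12 group means with 24 residual and 6.49 prior degrees of freedom, and p-values were adjusted over 18769 probe sets at a threshold of 0.05. Beside each difference stands its SE in this fit. The rule for naming genes took the 14 largest rises and falls without overlap, up to 4 called members of each of 32 lists, the 6 largest called in each direction for the change between days and for A75QN against Atro and A66QC, and Gug. Members and lists were chosen with earlier results of these data known.

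Same-numbered A75QN and Control arrays of day 2 deviated from their group means with correlations of 0.0174, -0.179 and -0.198. Arrays of different numbers gave -0.0911 to 0.197. With 3 arrays a group, these values cannot decide whether the numbers pair samples, and the fit took no pairing. The fit was tested on simulated data of this comparison over 18769 probe sets, with normal noise drawn independently for each probe set and array. With 50 changes of each size, it called 48% at a log2 change of 0.25, 92% at 0.5 and 100% at 1 and at 2. Of its 178 calls, 8 were unchanged probe sets. Shifts shared by the probe sets of an array were not simulated, so these shares need not hold for the real arrays. Alternatives were quantile and cyclic loess normalization, the brighter probe sets alone, a trended prior, array weights, the replicate block, the compared groups alone, leaving out arrays of outlying spread and leaving out each array. Figures were drawn with matplotlib 3.10.9.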

Additional observations from a re-analysis of the deposited data

Results flagged for a closer look

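Spike-in controls, which are no fly genes, gave a signal 2.86 higher (log2) on A75QN than on Control arrays at day 2. At day 0, A75QN arrays averaged 10.4 and Control arrays 10.6. The labels record no reason, and the part of this difference in the results was not tested. A change between days 0 and 2 cannot be told apart from it.

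The A75QN minus Control difference was tested for a change between days 0 and 2, which passed for 383 probe sets, among them those of 31 named genes. The following values are that change, day 2 minus day 0, on the log2 scale, with the adjusted p of limma under 0.05.

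The difference moved upward for CG30371 by 1.22 and for Ect3 by 1.35. It moved upward for the extracellular matrix gene Tsp by 0.87, for CG11438 by 0.82, for sn by 0.80, for Prat2 by 0.72 and for CG11426 by 0.69. For Mlp60A it moved by 0.60, for Obp8a by 0.58, for nAChRalpha7 by 0.57, for Fbxl4 by 0.50, for Buffy by 0.42 and for Cyp9c1 by 0.38.

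The difference moved downward most for Cpr72Ec (-3.75), Gnmt (-2.91), Cpr62Bc (-2.31) and sad (-2.31). The change was -1.79 for BomBc3, -1.73 for CG8736, -1.68 for CG5966, -1.54 for CG17777, -1.33 for Osi6 and -1.32 for Tsp42Eo. It was -1.14 for Strica, -0.998 for CG4962, -0.94 for bw, -0.86 for Pepck2 and -0.84 for BomS2. It was -0.63 for Osi9, -0.52 for CG30083 and -0.44 for per.

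Of these 31 changes, 23 held without each array of the 4 groups in turn. That of BomBc3 was lost without A75QN day 0 replicate 1, 2 or 3, A75QN day 2 replicate 1, 2 or 3, Control day 0 replicate 1 or 3 or Control day 2 replicate 1, 2 or 3 (-1.90 to -1.53, adjusted p = 0.0524 to 0.117). That of Mlp60A was lost without A75QN day 0 replicate 1, 2 or 3, A75QN day 2 replicate 1, 2 or 3, Control day 0 replicate 2 or 3 or Control day 2 replicate 1, 2 or 3 (0.53 to 0.62, adjusted p = 0.0567 to 0.145). That of Buffy was lost without A75QN day 0 replicate 1, 2 or 3, A75QN day 2 replicate 2 or 3, Control day 0 replicate 2 or 3 or Control day 2 replicate 2 (0.36 to 0.44, adjusted p = 0.0543 to 0.129). That of BomS2 was lost without A75QN day 0 replicate 1 or 2, A75QN day 2 replicate 2 or 3, Control day 0 replicate 1 or 3 or Control day 2 replicate 3 (-0.85 to -0.74, adjusted p = 0.0574 to 0.0966). That of nAChRalpha7 was lost without A75QN day 0 replicate 1 or 2, A75QN day 2 replicate 2 or 3, Control day 0 replicate 2 or Control day 2 replicate 2 (0.47 to 0.57, adjusted p = 0.0514 to 0.095). That of Pepck2 was lost without A75QN day 0 replicate 1, A75QN day 2 replicate 2 or 3, Control day 0 replicate 1 or Control day 2 replicate 1 (-0.83 to -0.64, adjusted p = 0.052 to 0.0936). That of Cyp9c1 was lost without A75QN day 0 replicate 2, A75QN day 2 replicate 2, Control day 0 replicate 1 or Control day 2 replicate 2 (0.30 to 0.37, adjusted p = 0.0585 to 0.0875). That of CG30083 was lost without A75QN day 0 replicate 2 or Control day 0 replicate 1 (-0.49 to -0.44, adjusted p = 0.0504 to 0.0573).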

How the results depend on the processing

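Without any 1 of the arrays of a comparison, the probe sets called numbered 533 to 931 against Control, 200 to 392 for the change between days, 208 to 444 against Atro and 293 to 899 against A66QC, and members of the lists 54 to 69, against 73 with all arrays. The count against Control was 931 without Control replicate 2 (197 higher, 734 lower), 533 without Control replicate 3 and 541 without A75QN replicate 3. That for the change was 200 without A75QN day 0 replicate 2, 211 and 215 without A75QN day 2 replicates 2 and 3, 234 without A75QN day 0 replicate 1 and 251 without Control day 0 replicate 2. That against Atro was 208 without Atro replicate 3, and 244 and 228 without A75QN replicates 2 and 3. That against A66QC was 899 without A66QC replicate 3, 310 without its replicate 2, and 293 and 314 without A75QN replicates 2 and 3.

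Quantile normalization gave 2223 calls against Control, 1301 for the change, 1031 against Atro, 1702 against A66QC and 182 in the lists. Cyclic loess gave 2129, 1189, 965, 1599 and 171 in the same order. Either kept all 878 calls against Control. Array weights gave 3276, 1689, 5678, 173 and 228. The compared groups alone gave 1374 against Control, 606 for the change and 129 in the lists. Leaving out the arrays of outlying spread gave 1621 against Control (353 higher, 1268 lower), 935 against Atro, 1891 against A66QC and 119 in the lists. The cause of these shifts was not tested. The other alternatives kept each count within 1.5 times. Higher calls for the change were 48.0% of the total as deposited and 37.2% after cyclic loess.

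With the replicate number as a block, 836 probe sets were called against Control (298 higher, 538 lower), 345 for the change, 372 against Atro, 509 against A66QC and 71 in the lists. The block ended the calls of CG5966, ogre, Prat2 and Hipk against Control and of no other named gene. The trended prior ended those of Cpr62Bc, CG5966, DnaJ-1 and CG8736, and leaving out the arrays of outlying spread ended those of ogre, Vha36-3, Prat2 and Hipk. Of 84 named calls, 58 held under every alternative that gave a value and none reversed. There were 14 alternatives, and 5 of the 58 had no value among the brighter probe sets alone. Differences near background are limited by signal: 51 called genes had an A75QN mean and 51 a Control mean under the highest array median.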

Other observations

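The families below were picked after their values were seen, so their counts describe these arrays and carry no test of the family. Over all 11982 genes, 494 (4.12%) fell and 212 (1.77%) rose. Of 8 measured bomanin genes, encoding short immune peptides, 5 fell in A75QN at day 2 and none rose, with a median of -0.83. BomS4 measured 10.34, 10.42 and 10.45 in A75QN heads, against 11.30, 11.07 and 11.43 in Control heads, and BomT2 measured 10.79, 10.60 and 10.49 in A75QN heads, against 11.47, 11.39 and 11.62 in Control heads. BomT3 measured 10.33, 10.44 and 10.20 in A75QN heads, against 11.23, 10.95 and 11.21 in Control heads, while BomS6 measured 11.93, 11.85 and 11.79 in A75QN heads, against 11.90, 11.79 and 12.06 in Control heads, with overlapping groups. At day 0, the A75QN minus Control difference was -0.63 for BomS4, 0.062 for BomT2 and -0.093 for BomT3. The others that fell were BomS2 and BomBc3, and the BomBc3 call was lost without A75QN replicate 3 or Control replicate 3 (-1.29 to -1.23, adjusted p = 0.0717 to 0.0862).

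Of 16 measured Tsp42E tetraspanins, which the RefSeq table places on chromosome 2R, 3 fell. Tsp42En measured 8.18, 8.14 and 8.27 in A75QN heads, against 9.51, 9.04 and 9.28 in Control heads, and Tsp42Eo differed by -1.22 ± 0.11 (SE). Tsp42Ei fell by 0.30, a call lost without A75QN replicate 1 or 3 or Control replicate 1 or 3 (-0.29 to -0.23, adjusted p = 0.126 to 0.296). Of 24 Osiris genes, Osi6, Osi9, Osi2 and Osi8 fell and the median was 0.02, with most others near background in both groups. Osi2 measured 6.53, 6.44 and 6.40 in A75QN heads, against 7.00, 6.87 and 7.13 in Control heads. The Osi8 call was lost without A75QN replicate 1 or 3 or Control replicate 1 or 3 (-0.24 to -0.20, adjusted p = 0.083 to 0.167).

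In the order of the RefSeq gene table (assembly Release 6 plus ISO1 MT), 11893 measured genes were placed, 706 of them called. Of the 706, 127 formed 59 runs of neighbouring called genes, of which 38 went in one direction. The number of runs that calls scattered at random would give was not worked out, so the count shows no grouping. As 494 of the 706 were lower, runs in one direction were favoured. The longest runs, of 4 genes, were 2. One held Nepl13, Nepl14, Nepl15 and CG13841, and the other lipid phosphate phosphatase relatives on chromosome 3L that did not move alike. CG11438 rose by 0.39, CG11437 by 0.22 and CG11426 by 0.48, while CG11425 fell by 0.89. The CG11437 call was lost without A75QN replicate 1 or 2 or Control replicate 1 or 3 (0.19 to 0.21, adjusted p = 0.0967 to 0.156), and the CG11425 call without A75QN replicate 1 or 3 or Control replicate 3 (-0.90 to -0.81, adjusted p = 0.0517 to 0.104). Hsc70-2 and its neighbours CG31157 and CG7966 were lower in A75QN on both days, with differences of -0.88, -0.32 and -0.76 at day 2 and -0.83, -0.42 and -0.89 at day 0.

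Of the 878 called probe sets, 83 had no gene symbol, 30 had several and 59 were second probe sets of a gene.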
